A study of Arvicanthis niloticus with 28 samples.

Results

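Norrin is a secreted ligand that binds the receptor Frizzled 4 on retinal endothelial cells, together with the co-receptors LRP5 and LRP6 and the tetraspanin TSPAN12. The complex stabilizes beta-catenin, which enters the nucleus and acts with transcription factors of the TCF and LEF family. In the retina this pathway is known for driving vessel growth and for keeping the blood-retina barrier, of which claudin 5 is a tight junction protein. The 10 genes described here were listed with earlier results of these libraries known. By their place in that pathway, Fzd4, Lrp5, Lrp6 and Tspan12 belong to the receptor complex, and Ctnnb1 (beta-catenin) and Lef1 are transducers. Axin2, Apcdd1 and Sox17 lie downstream of the pathway in the mouse. The last gene, the Wnt ligand Wnt11, is among the genes that the study picked in these rats. All 10 were found among the 18970 genes of the deposited tables.

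RNA was measured in the whole retinal vasculature of 28 Nile rats (Arvicanthis niloticus), a rodent that can become diabetic on a high-caloric diet, with 1 library per rat. All rats were wild type and untreated according to the labels, which do not give age or which diet a rat ate. The pre-dropout group held 4 rats, T353M, T389M, T391M and T407M, whose density of acellular capillaries (capillaries that have lost their cells) was 17.1 to 17.9 per mm2. The normal group held 24 rats at 5.90 to 14.5 per mm2. All 4 pre-dropout rats were male, against 8 males and 16 females in the normal group, so values with sex as a covariate and among males are given where they turn a sign. Random blood glucose was 57.4 to 443 mg/dL in pre-dropout rats and 52.0 to 422 mg/dL in normal rats.

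The libraries held 2669903 to 4719175 counts in pre-dropout rats and 153111 to 10029207 counts in normal rats, of which 26 of 28 reached 1000000. Endothelial RNA was present in every library: Cdh5, the cadherin that defines endothelial junctions, stood at 231 to 413 CPM (counts scaled to 1000000 per library) in pre-dropout rats and 93.7 to 465 CPM in normal rats. RNA of other cells was present too: the pericyte marker Pdgfrb stood at 84.3 to 460 CPM in pre-dropout rats and 73.4 to 662 CPM in normal rats. No rat of either group was at 0 for these 2 markers. In such bulk samples fewer cells of a type and less RNA per cell cannot be told apart.

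Levels can be compared between genes only per transcript length, for which TPM (a level scaled for length and library size) was used. Ctnnb1 had the highest level of the 10 genes, 390 ± 110 TPM (SD, n = 28), which placed it at rank 305 of all genes. Tspan12 followed at 253 ± 107 TPM, Lrp5 at 118 ± 43.3 TPM, Apcdd1 at 118 ± 84.4 TPM, Lrp6 at 72.9 ± 30.7 TPM and Fzd4 at 61.9 ± 38.5 TPM. Lef1 stood at 24.5 ± 10.7 TPM, Sox17 at 11.7 ± 8.49 TPM and Axin2 at 8.35 ± 7.03 TPM. Wnt11 was at 1.69 ± 4.49 TPM with a median of 0, so the ligand was the least abundant member.

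Not every step in that order exceeded the spread between rats. Ctnnb1 lay above Tspan12 in 25 of 28 rats, Tspan12 above Lrp5 in 26, Fzd4 above Lef1 in 27 and Axin2 above Wnt11 in 25, with a mean log2 difference larger than its SD in each of these 4 pairs. Lrp5, Apcdd1, Lrp6 and Fzd4 could not be ordered as neighbours, since the first of each pair was higher in only 16, 19 and 17 of 28 rats. Lef1 and Sox17 did not differ beyond the SD either, and neither did Sox17 and Axin2, where Sox17 was higher in 14 of 28 rats. Between the 2 co-receptors, Lrp5 was above Lrp6 in 25 of 28 rats, by 0.74 ± 0.71 on the log2(TPM + 1) scale (SD, n = 28). Cldn5, which encodes claudin 5, reached 26479 ± 10968 TPM and rank 3 of all genes. That figure rests on length: the ratio of counts to TPM gave Cldn5 a length of 0.0575 of the median gene, against 1.58 for Ctnnb1, and without the length Cldn5 had 2991 ± 1599 CPM in pre-dropout rats (SD, n = 4) and 2607 ± 1130 CPM in normal rats (SD, n = 24). By the same ratio Tspan12 and Apcdd1 were short, at 0.279 and 0.281 of the median gene. Without the length Tspan12 had a mean of 122 CPM over 28 rats, against 183 CPM for Lrp5 and 134 CPM for Lrp6. The place of Tspan12 above these 2 genes therefore rests on length as well.

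**Figure D1:**
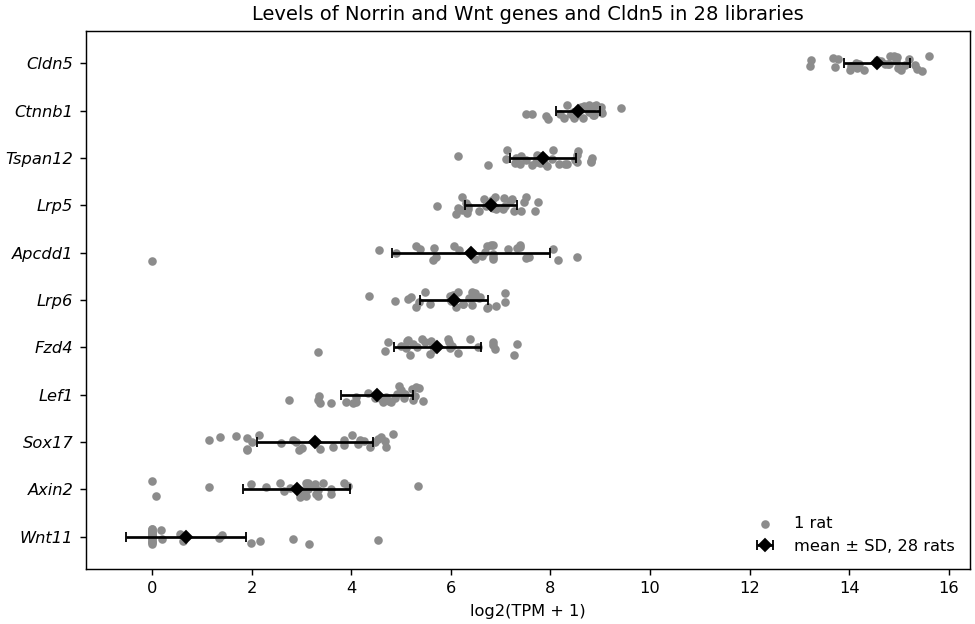
Levels of the 10 Norrin and Wnt genes and Cldn5 on the log2(TPM + 1) scale, ordered by mean TPM, with 1 grey point per rat and the mean and SD over 28 rats in black. Cldn5 lies above all 10 genes in the plot, Ctnnb1 leads the members, and most Wnt11 points are at 0.

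The members also differed in how steady they were. Among the 24 normal rats the coefficient of variation (SD over mean of CPM) was 0.324 for Ctnnb1 and 0.367 for Lrp5, below those of all but 1.57% and 3.37% of the genes tested, whose median was 0.902. Lrp6, Tspan12 and Lef1 lay at 0.456, 0.473 and 0.475, Fzd4 at 0.641, Apcdd1 at 0.687 and Sox17 at 0.821. Axin2 and Wnt11 were the most variable, at 0.968 and 2.26. They also had the fewest reads of the members, with a mean of 114 and 7.18 counts per library. Ctnnb1 and Lrp5 had the most, 4570 and 836. The part of read depth in these values was not tested. Part of the Axin2 value comes from single rats: T425M had 119 CPM and T448M had 0 counts, where 3 counts, taken as the floor of detection, would have been 3.21 CPM.

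The first comparison asked whether these genes differed in retinal vessels of pre-dropout rats, a stage that the study places between the normal range and capillary dropout. No member passed the test. edgeR called 0 of 13800 genes tested (0%) at an adjusted p under 0.05, and DESeq2 and limma-voom called 5 and 4 genes, none of them a member. At an unadjusted p under 0.05, 27 genes (0.196%) were higher and 367 genes (2.66%) were lower in edgeR, and Wnt11 was the only member among them. All 10 members had an adjusted p that rounds to 1, and no member's groups were free of overlap.

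Of the receptor complex, Fzd4, the Norrin receptor, had 162, 61.6, 73.5 and 36.7 CPM in the pre-dropout rats T353M, T389M, T391M and T407M, against a lowest value of 10.2, a median of 52.0 and a highest of 207 CPM in normal rats. The pre-dropout rats thus spanned most of the normal range, and the log2 fold change was 0.19 (SE 0.48). Its sign depended on sex, since it was -0.18 with sex as a covariate and -0.21 among males, where the 8 normal males averaged 94.4 ± 60.7 CPM (SD). Without T353M it was -0.34. Lrp5, the co-receptor whose loss causes retinal vessel defects in humans and mice, had 281, 228, 158 and 245 CPM in the same 4 pre-dropout rats, against 75.2, 165 and 351 CPM as the lowest, median and highest normal values. 3 of the 4 values were above the normal median, and the log2 fold change of 0.38 (SE 0.30) was the largest for a receptor gene among the members.

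Lrp6, the related co-receptor, had 163, 169, 156 and 87.8 CPM in pre-dropout rats, against 38.8, 123 and 265 CPM as the lowest, median and highest in normal rats. T407M stood below the other 3 pre-dropout rats, and the log2 fold change was 0.12 (SE 0.37). Tspan12, which strengthens Norrin signaling through Frizzled 4, had 182, 70.4, 112 and 118 CPM in pre-dropout rats, against 36.2, 108 and 229 CPM as the lowest, median and highest in normal rats. The means were 121 ± 46.0 CPM in pre-dropout rats (SD, n = 4) and 122 ± 57.8 CPM in normal rats (SD, n = 24), with a log2 fold change of -0.01 (SE 0.39).

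Of the transducers, Ctnnb1 had 1188, 1281, 993 and 1146 CPM in pre-dropout rats, against 462, 1115 and 1646 CPM as the lowest, median and highest in normal rats. The 4 pre-dropout values thus lay inside the range of the normal rats, and the log2 fold change was 0.12 (SE 0.28). Lef1, which encodes a transcription factor that binds beta-catenin and is itself induced by it, had 80.6, 116, 77.1 and 38.9 CPM in pre-dropout rats, against 16.02, 68.5 and 128 CPM as the lowest, median and highest in normal rats. Its log2 fold change was 0.14 (SE 0.43), and 5 normal rats lay below and 3 above all 4 pre-dropout rats.

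Of the downstream genes, Axin2, a feedback inhibitor of the pathway, had 17.1, 28.6, 38.7 and 3.89 CPM in pre-dropout rats, against 0, 19.02 and 119 CPM as the lowest, median and highest in normal rats. This lay on both sides of the normal median, with a log2 fold change of -0.06 (SE 0.84). Apcdd1, a membrane protein that inhibits Wnt signaling and takes part in barrier formation in the mouse retina, had 151, 59.3, 47.6 and 60.5 CPM in pre-dropout rats, against 0, 44.1 and 143 CPM as the lowest, median and highest in normal rats. All 4 pre-dropout values were above the normal median and T353M was above every normal rat, but only 13 of 24 normal rats lay below all 4, and the log2 fold change was 0.58 (SE 0.64). Without T353M it was 0.08. The 8 normal males had a median of 64.6 CPM, and of the pre-dropout rats, all male, only T353M stood above that. The rat at 0 was T419F, in which 3 counts would have been 0.534 CPM. Sox17, an endothelial transcription factor that lies downstream of Norrin in the mouse, had 70.1, 76.4, 25.3 and 57.1 CPM in pre-dropout rats, against 4.16, 30.6 and 107 CPM as the lowest, median and highest in normal rats. Its log2 fold change was 0.47 (SE 0.66) over all rats and -0.04 among males, where the 8 normal males averaged 58.4 ± 28.5 CPM (SD).

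Wnt11, a ligand known mainly for signaling without beta-catenin, was detected with few reads. It had 71, 33, 5 and 0 counts in T353M, T389M, T391M and T407M, which is 16.9, 7.61, 1.49 and 0 CPM, against counts in 8 of 24 normal rats, none above 4.63 CPM. 2 of the 4 pre-dropout rats were above every normal rat, while the fourth was at 0, where 3 counts would have been 1.12 CPM. The normal rat T410F was also at 0, but 3 counts there would have been 19.6 CPM, so its library could not show such levels. The log2 fold change was 3.57 (SE 1.34, edgeR unadjusted p = 0.011, adjusted p = 1). T353M held 65.0% of the summed pre-dropout CPM, and without that rat the log2 fold change was 2.61. Adding sex or the endothelial marker level as a covariate gave 5.91 and 6.34, and the 8 normal males had at most 0.621 CPM. Over the 14 fits that could test Wnt11 its adjusted p ran between 0.116 and 1. Wnt11 is among the genes that the study picked for this contrast in these rats, so the value is a description and not independent evidence.

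**Figure D2:**
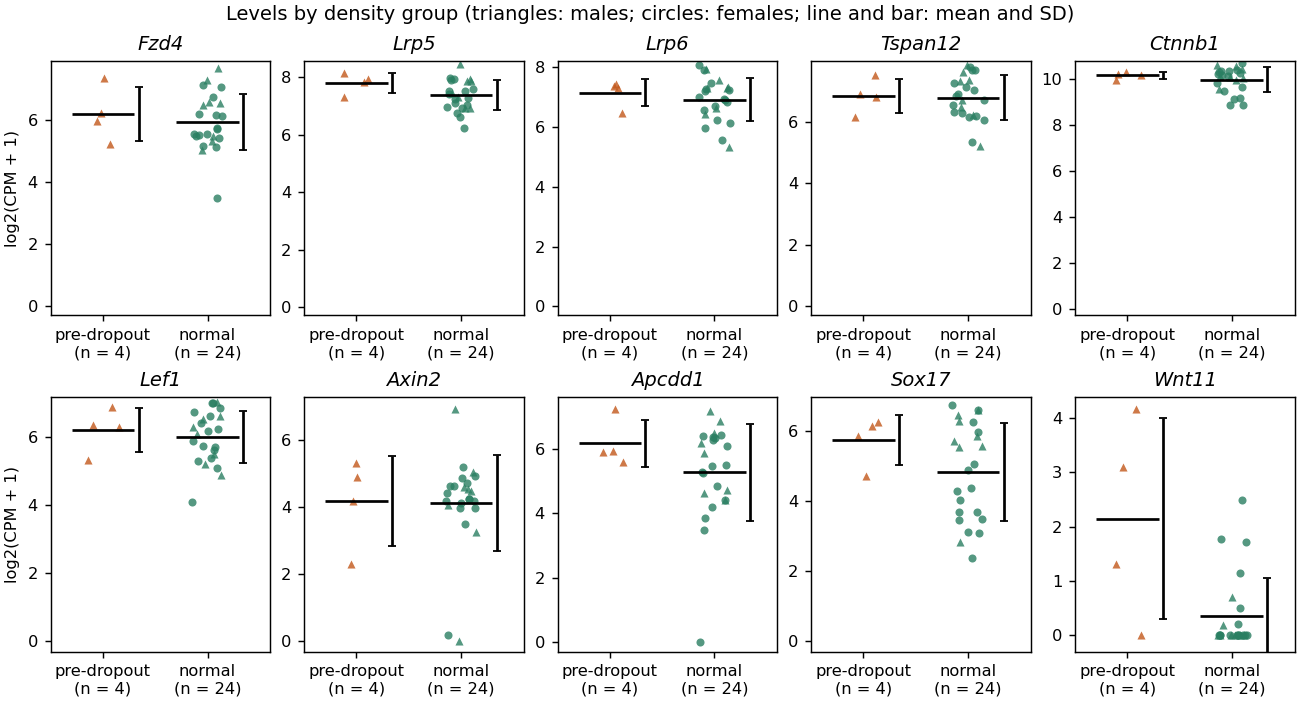
Levels of the 10 genes on the log2(CPM + 1) scale in pre-dropout rats (left, n = 4) and normal rats (right, n = 24), with triangles for males, circles for females, and a line and bar for the mean and SD. Pre-dropout points lie inside the normal range for 8 genes, and 1 Apcdd1 point and 2 Wnt11 points lie above it.

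Taking the 10 members by direction only, 8 had a log2 fold change above 0, with a median of 0.17, while 41.1% of all genes tested were above 0, with a median of -0.13. With limma-voom all 10 were above 0, with a median of 0.49, against 43.6% of all genes above 0. Sox17, Lrp5, Ctnnb1 and Wnt11 had a limma-voom unadjusted p under 0.05. In that fit 598 of 13800 genes were higher and 709 lower at this limit, these members included. The smallest adjusted p of a member was 0.373 for Sox17 at a log2 fold change of 1.37. Endothelial markers moved with the members: 10 of 11 were above 0, with a median of 0.24, and the mean log2 CPM of the 11 was 8.31 ± 0.24 in pre-dropout rats (SD, n = 4) and 7.96 ± 0.45 in normal rats (SD, n = 24). With that mean as a covariate, 4 of 10 members were above 0, with a median of -0.07, against 50.2% of all genes. With sex as a covariate 5 of 10 were above 0, against 48.5% of all genes. Among males 4 of the 9 members that could be tested were above 0, against 46.9% of all genes. Rod markers were above 0 in 1 of 8 cases, with a median of -0.83, and pericyte markers in 1 of 8, with a median of -0.43. The summed rod markers ran between 190 and 715 CPM in pre-dropout rats and between 129 and 3858 CPM in normal rats, and their part in the members' values was not tested.

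The pathway was then widened to 92 genes by role, of which 67 could be tested in this comparison. None was called by edgeR, and 3 of them had an unadjusted p under 0.05, Wnt11 included. By role, 2 of 5 ligands, 7 of 18 receptors and co-receptors, 11 of 20 transducers, 3 of 11 inhibitors and 16 of 19 endothelial targets were above 0. Among the targets, Slco1c1, a thyroxine transporter of brain and retinal barrier endothelium, had 610, 669, 525 and 458 CPM in the 4 pre-dropout rats and a mean of 350 ± 116 CPM in normal rats (SD, n = 24). Its log2 fold change was 0.69 (SE 0.27, edgeR unadjusted p = 0.013, adjusted p = 1), and 0.64 with sex and 0.43 with the endothelial marker level as a covariate. Abcb1a, the efflux pump P-glycoprotein, had 1701 ± 640 CPM in pre-dropout rats (SD, n = 4) and 1264 ± 547 CPM in normal rats (SD, n = 24), with a log2 fold change of 0.43 (SE 0.31). Lgr5, a receptor for R-spondins, had 0 counts in all 4 pre-dropout rats and counts in 9 of 24 normal rats. Its edgeR unadjusted p was 0.022 and its adjusted p rounds to 1. The 9 rats with Lgr5 counts were all female, and the 8 normal males had 0 counts like the male pre-dropout rats, so group and sex cannot be told apart here. Fzd7, another Frizzled receptor, had 0.0744 ± 0.149 CPM in pre-dropout rats (SD, n = 4) and 2.07 ± 5.35 CPM in normal rats (SD, n = 24). It had counts in 1 of 4 pre-dropout rats and 11 of 24 normal rats, whose median was 0 and highest value 24.6 CPM. Its log2 fold change was -4.39 (SE 2.48, edgeR unadjusted p = 0.084). Dkk3, the most abundant of the listed inhibitor genes at 607 ± 387 TPM (SD, n = 28), had a log2 fold change of -0.58 (SE 0.45). Those of Wnt9a, Bcl9 and Bcl9l, which follow next in their lists, were 1.72 (SE 1.54), -0.79 (SE 0.85) and -0.43 (SE 0.63).

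Ligand RNA was scarce in these vessels. Ndp, which encodes Norrin and is made by Müller glia in the retina, was counted in 17 of 28 libraries at a mean of 5.27 ± 6.46 TPM (SD, n = 28), with 0, 0, 7.14 and 8.21 CPM in T353M, T389M, T391M and T407M and a median of 1.97 CPM in normal rats. Wnt5b had the highest level of the listed ligands, 8.28 ± 11.5 TPM (SD, n = 28) with counts in 16 of 28 libraries. Other roles were well covered: Tnks2, a tankyrase that marks axin for degradation, stood at 156 ± 51.0 TPM, Frzb, a secreted Wnt antagonist, at 173 ± 133 TPM, and Slc2a1, the glucose transporter of barrier endothelium, at 389.04 ± 139 TPM (SD, n = 28 each).

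The second comparison followed acellular capillary density within the 24 normal rats, with sex as a covariate. No member passed the test: edgeR called 0 of 13677 genes (0%), with 75 genes (0.548%) rising and 78 genes (0.57%) falling at an unadjusted p under 0.05, none of them a member, and DESeq2 and limma-voom called 0 genes. Wnt11 did not pass the filter on low counts here. All of the 9 members that did had a slope below 0, with a median of -0.33 per 5 capillaries per mm2, against 43.7% of all genes below 0 and a median of 0.09. Without T398F, the normal rat of the highest density, 8 of 9 were below 0 and the median was -0.18, against 44.0% of all genes below 0. With DESeq2 or limma-voom 7 of 9 were below 0, against 39.7% and 40.8% of all genes.

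Lef1 had the steepest of these slopes, -0.67 log2 per 5 per mm2 (SE 0.38, edgeR unadjusted p = 0.090, adjusted p = 1). Its level was 16.02, 52.3 and 128 CPM as the lowest, median and highest in the 11 normal rats at a density of 10 or more, and 28.6, 76.6 and 126 CPM in the 13 below 10. High values were therefore found on both sides of 10 per mm2, and the lowest value belonged to T430F at 11.5 per mm2. Fzd4 followed at -0.62 (SE 0.44), with 10.2, 46.2 and 207 CPM as the lowest, median and highest at a density of 10 or more, and 31.7, 52.5 and 155 CPM below 10. Its lowest value belonged to T398F, and without that rat the Fzd4 slope was -0.31 and the Lef1 slope -0.63. The other slopes were -0.56 for Apcdd1 (SE 0.57), -0.34 for Lrp5 (SE 0.29), -0.33 for Tspan12 (SE 0.31), -0.16 for Axin2 (SE 0.76), -0.11 for Ctnnb1 (SE 0.25), -0.11 for Sox17 (SE 0.60) and -0.06 for Lrp6 (SE 0.32). Cldn5 had a slope of -0.35 (SE 0.31).

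Cell type markers moved along density too. Of the endothelial markers, 9 of 11 had a slope below 0, with a median of -0.26, while 8 of 8 rod markers were above 0, with a median of 1.30, and 7 of 8 markers of Müller glia and astrocytes were above 0, with a median of 0.43. Pericyte markers were below 0 in 8 of 8 cases, with a median of -0.29, and erythrocyte markers in 3 of 3, with a median of -0.96. The part of these cell types in the members' slopes was not tested. With the endothelial marker level as a covariate, 5 of 9 members were below 0 and their median was -0.16. In that fit 48.9% of all genes were below 0, with a median of 0.01. Without that covariate, 24 of 66 genes of the widened pathway had a slope above 0, against 56.3% of all genes. They included 5 of 19 targets and 7 of 11 inhibitors. The smallest p among the other receptor genes was that of Fzd5, with a slope of 2.12 (SE 1.22) and counts in 20 of 28 libraries. Members aside, since Lef1 had the smallest p of both the transducers and the targets, the genes of smallest p in the other lists were Wnt2b at -1.22 (SE 1.6) and Wnt5b at -1.04 (SE 1.55) among the ligands, Axin1 at 1.30 (SE 0.93) among the transducers, Nkd2 at -2.46 (SE 1.49) among the inhibitors and Foxq1 at -1.03 (SE 0.68) among the targets. Lgr4 had a slope of 0.78 (SE 0.47) and Dkk3 of 0.54 (SE 0.33).

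**Figure D3:**
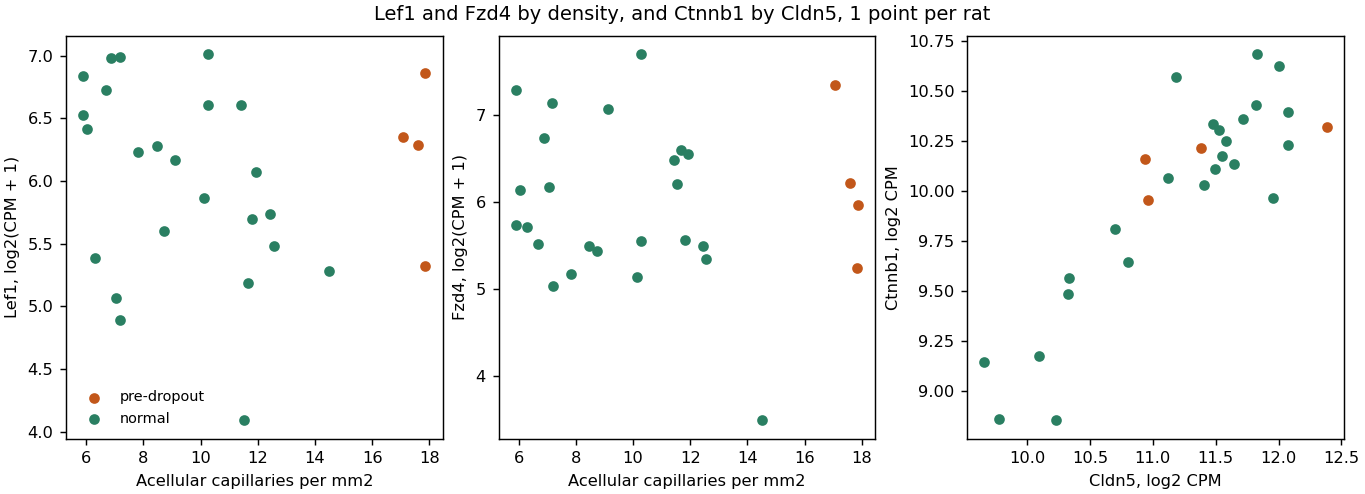
Lef1 (left) and Fzd4 (middle) on the log2(CPM + 1) scale against acellular capillary density, and Ctnnb1 against Cldn5 (right) in log2 CPM, with 1 point per rat, orange for pre-dropout and green for normal rats. Lef1 and Fzd4 scatter widely at every density, while Ctnnb1 and Cldn5 rose together, with Pearson's r of 0.87.

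The third comparison used random blood glucose over all 28 rats, with sex as a covariate. Again no member passed. edgeR called 0 of 13800 genes (0%), with 313 genes (2.27%) rising and 212 genes (1.54%) falling at an unadjusted p under 0.05, none of them a member. DESeq2 called 22 genes and limma-voom 0. The member slopes lay between -0.17 for Fzd4 (SE 0.16) and 0.20 for Sox17 (SE 0.20) log2 per 100 mg/dL, with a median of -0.08, and 3 of 10 were above 0, against 52.4% of all genes. Fzd4 had 39.7, 61.6 and 88.8 CPM as the lowest, median and highest in the 5 rats above 200 mg/dL, and 10.2, 52.5 and 207 CPM in the other 23. Sox17 had 25.3, 57.0 and 95.8 CPM above 200 mg/dL, and 4.16, 28.7 and 107 CPM in the others. In both genes the hyperglycemic rats lay inside the range of the others.

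The remaining glucose slopes were smaller in size. They were -0.16 for Apcdd1 (SE 0.22), -0.15 for Axin2 (SE 0.28), 0.10 for Lef1 (SE 0.14), -0.09 for Lrp5 (SE 0.10), -0.09 for Wnt11 (SE 0.51), -0.08 for Lrp6 (SE 0.13), -0.03 for Tspan12 (SE 0.13) and 0.01 for Ctnnb1 (SE 0.09), all in log2 per 100 mg/dL. The Wnt11 slope was -1.42 (SE 0.54, edgeR unadjusted p = 0.013, adjusted p = 0.690) in normal rats only and -1.36 without T389M. Ctnnb1 thus had both the smallest slope and the smallest error. Rod markers were above 0 in 8 of 8 cases, with a median slope of 0.27, and pericyte markers in 0 of 8, with a median of -0.21. In the widened pathway Notum, a secreted enzyme that inactivates Wnt ligands, had a slope of -1.77 (SE 0.71, edgeR unadjusted p = 0.017, adjusted p = 1) with counts in 16 of 28 libraries. The highest Notum value, 88.2 CPM, belonged to T424M at 56.7 mg/dL, and the next, 24.8 CPM, to T399F. The slope without T424M was not tested. Pygo1, a nuclear co-factor of beta-catenin, had a slope of 1.58 (SE 0.75, edgeR unadjusted p = 0.042, adjusted p = 1) with counts in 11 libraries. The highest Pygo1 values, 24.8 and 14.8 CPM, belonged to T430F at 75.6 mg/dL and T419F at 84.5 mg/dL. Of the 5 rats above 200 mg/dL, T446M, T391M and T392F had 7.92, 5.36 and 3.30 CPM, and T389M and T370M had 0 counts. The other genes of smallest p in their lists were Wnt2b at -1.12 (SE 0.85), Wnt5b at 0.76 (SE 0.68), Fzd7 at -1.13 (SE 0.79), Bcl9l at -0.30 (SE 0.21), Nkd1 at -0.45 (SE 0.38) and Slco1c1 at 0.14 (SE 0.09).

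**Figure D4:**
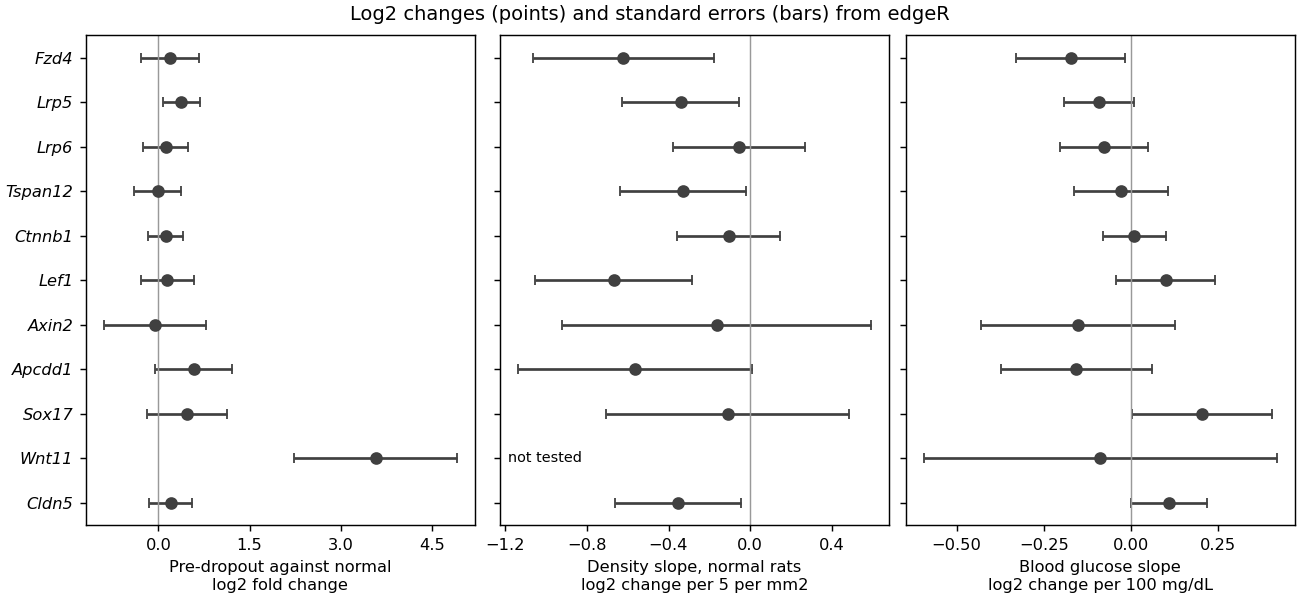
Log2 changes (points) with their standard errors (bars) from edgeR for the 10 genes and Cldn5: pre-dropout against normal rats (left), per 5 acellular capillaries per mm2 in normal rats (middle) and per 100 mg/dL of blood glucose (right). The horizontal scales differ between panels, and Wnt11 at 3.57 is the only value more than 2 standard errors from 0.

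The members were then set beside Cldn5, rat by rat. Spearman's rho of log2 CPM over 28 rats was tested with 100000 permutations and adjusted over 13799 genes, of which 840 (6.09%) correlated positively with Cldn5 at an adjusted p under 0.05. Among the members 5 of 10 did. Cell type markers did so too: 9 of 11 endothelial markers (median rho 0.72) and 5 of 8 pericyte markers (median rho 0.51) passed that limit, counting either sign. Co-variation with Cldn5 was therefore not particular to the members. Ctnnb1 was the closest member, with a rho of 0.80 and a Pearson's r of 0.87. Each had a permutation p of 1e-05, the smallest these permutations can give, and the adjusted p for rho was 0.000831. By rho Ctnnb1 stood at rank 22 of all genes. Lrp5 had a rho of 0.64 and an r of 0.60 (permutation p = 0.00039 and 0.00081, adjusted p = 0.00485 and 0.00711).

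Lef1, Fzd4 and Sox17 had weaker relations. Lef1 had a rho of 0.54 and an r of 0.42 (permutation p = 0.0033 and 0.0284, adjusted p = 0.0179 and 0.0777). Fzd4 had a rho of 0.51 and an r of 0.48 (permutation p = 0.00655 and 0.00973, adjusted p = 0.0284 and 0.0371), and Sox17 a rho of 0.50 and an r of 0.48 (permutation p = 0.00734 and 0.0104, adjusted p = 0.0305 and 0.0387). Apcdd1 had a rho of 0.29 and an r of 0.46 (permutation p = 0.134 and 0.0106, adjusted p = 0.241 and 0.0391), so it passed on r alone, and its r was 0.24 without the 2 rats named next. The other 4 members passed on neither measure: by permutation, Lrp6 had a rho of 0.27 and an r of 0.20 (p = 0.158 and 0.298, adjusted p = 0.272 and 0.426), Axin2 a rho of 0.24 and an r of -0.04 (p = 0.209 and 0.865, adjusted p = 0.332 and 0.908). Tspan12 had a rho of 0.21 and an r of 0.27 (permutation p = 0.288 and 0.160, adjusted p = 0.420 and 0.270), and Wnt11 a rho of -0.19 and an r of -0.21 (permutation p = 0.331 and 0.293, adjusted p = 0.465 and 0.422). 9 members had a rho above 0, against 28.7% of all genes, whose median rho was -0.23.

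Leaving out T401F and T419F, the 2 rats farthest from the median of Cldn5, gave an r of 0.82 for Ctnnb1, 0.58 for Lrp5, 0.41 for Lef1, 0.48 for Fzd4 and 0.42 for Sox17, and 3 members stayed below an adjusted p of 0.05 for rho, Ctnnb1, Lrp5 and Lef1. Of all genes 3.36% correlated positively at that limit without these rats, against 6.09% with them. The mean level of the 11 endothelial markers moved with these genes: its rho was 0.78 with Cldn5, 0.71 with Lrp5, 0.67 with Lef1, 0.65 with Fzd4, 0.64 with Ctnnb1 and 0.58 with Sox17, but 0.05 with Tspan12. After that level was fitted and removed from both genes, the rho with Cldn5 was 0.75 for Ctnnb1 (permutation p = 1e-05, adjusted p = 0.00986, rank 7 of all genes), and no other member passed. Of all genes 0.442% then correlated positively at an adjusted p under 0.05. Lrp5 and Lef1 were then at -0.019 each, Fzd4 at -0.14 and Sox17 at 0.0011, while Tspan12 was at 0.39 (adjusted p = 0.194 by permutation). Library size moved with some members too, with a rho of -0.60 between the library total and Tspan12, -0.47 for Ctnnb1 and 0.41 for Lrp6. After the library total was fitted and removed instead, Lrp6 had a rho of 0.48 with Cldn5 (adjusted p = 0.0398 by permutation).

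**Figure D5:**
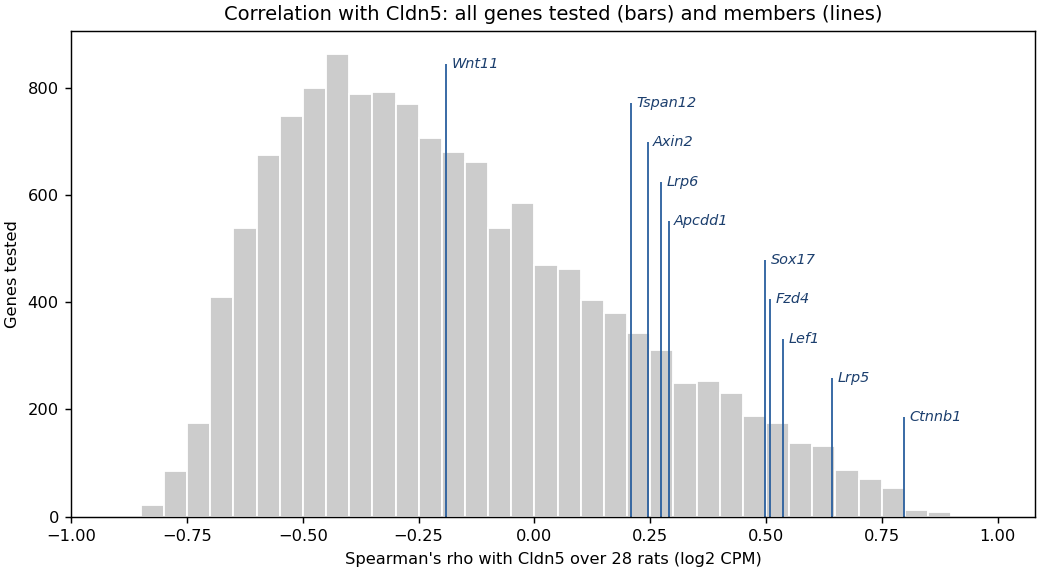
Number of genes tested (bars) by Spearman's rho with Cldn5 over 28 rats in log2 CPM, with the 10 members as labelled lines whose height carries no value. Most genes lie below 0, while Ctnnb1 at 0.80 and Lrp5 at 0.64 stand in the right tail.

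Among themselves the members were most alike in the pairs Lrp5 and Ctnnb1 (rho 0.66), Fzd4 and Apcdd1 (0.65) and Lrp6 and Sox17 (0.63) over the 28 rats, which share the library of each rat. The genes most like each member were sought among 7858 genes with a count in at least 24 libraries. Ctnnb1 was closest to Sox18 (rho 0.84), an endothelial transcription factor, and then to Arhgap29 and Myl12a. Lrp5 was closest to Abcc4 (0.80), Wars and Ptprb, the last of which encodes an endothelial phosphatase. Fzd4 was closest to Flot2 (0.81), Fbln2 and Spock2, Lef1 to Cnot8 (0.74), Hpcal1 and Ephb4, and Lrp6 to Zbtb39 (0.74), Calcrl and Mtif3. Tril (0.78) and Ppp1r16b were among the genes closest to Sox17. Tspan12 was closest to Arpc3 (0.77), Mfsd1 and Cers2, and Apcdd1 to Pold4 (0.76), Creb1 and Cdk2ap1. Axin2 had no gene closer than Capn1 (0.60).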

How the data were processed

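Total RNA of the isolated retinal vasculature was made into libraries with the LM-seq protocol per the labels. The authors deposited expected counts (estimated reads per gene, with fractions, not scaled between libraries) and TPM (scaled for length and library size) for 18970 genes with mouse symbols, taken here as the output of their comparative pipeline, CRSP. Values mapped to the Nile rat genome were not used here. Aligner versions were not given in the sources used here. TPM and counts rest on the gene lengths of that pipeline.

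The members and gene lists were chosen with earlier results of these data known. Groups followed the density label and the study's limits, and the unit of glucose came from its methods. Expected counts were rounded and tested with edgeR 4.0.16 (quasi-likelihood F test, TMM scaling, filterByExpr with a minimum count of 10) in R 4.3.3, with Benjamini-Hochberg adjustment over all genes tested. The study used EBSeq, and edgeR stood in for it. A call needed an adjusted p under 0.05, and a 2-fold change between density groups. The density slope and the glucose slope had sex as a covariate. All tests are two-sided. Correlations used log2 CPM (prior count 2) and Python 3.11.15. Alternatives used DESeq2 1.42.0 and limma 3.58.1, no filter on low counts, at least 1 CPM in 14 libraries, log2 TPM with a pseudocount of 1 or 0.1, other covariates and fewer rats. The code was checked on simulated data. Nothing in the labels says that rats shared a batch.

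Named genes were the members and Cldn5, for each role list the genes called or else the 2 smallest p in a comparison, the 2 most abundant genes per list, the 3 genes most alike to each member, and the defining marker of each cell type whose values are used. Some genes that this rule names are not reported here. A floor of 3 counts was 0.636 to 1.12 CPM in pre-dropout libraries and 0.299 to 19.6 CPM in normal libraries, for counting error only. Gene names were used as deposited, and 10 of 10 members stand in the Nile rat annotation mArvNil1.pat.X.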

Additional observations from a re-analysis of the deposited data

Results flagged for a closer look

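Among the 4 pre-dropout rats, Lrp6 in T407M stood apart from the other 3, at 87.8 CPM against 156, 163 and 169 CPM, and the gap to its nearest neighbour took 0.836 of the group's range, above Dixon's critical value for 4 samples. Apcdd1 in T353M stood apart at 151 CPM against 47.6, 59.3 and 60.5 CPM, with a gap of 0.875 of the range. Chance passes this limit in about 1 in 20 groups, and 10 genes were looked at.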

How the results depend on the processing

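No member was called in any of the alternatives tried for the 3 comparisons. The number of genes called between density groups was 72 with no filter on low counts, 5 with DESeq2, 4 with limma-voom and 11 with the endothelial marker level as a covariate. For the density slope it was 45 with no filter, and for the glucose slope 152 with no filter, 22 with DESeq2 and 2 in normal rats only. The number of members correlated with Cldn5 was 3 without the 2 farthest rats, when 3.36% of all genes correlated positively with it. It was 1 after removal of the endothelial marker level, when 0.442% of all genes did. Sox17 also missed the limit on log2(TPM + 1) and in normal rats only, with an adjusted p for rho of 0.0752 and 0.0564 by permutation. After removal of the library total Lrp6 passed in addition, at 0.0398. The alternatives without T398F, T389M, T446M or T414F, and the removal of the endothelial marker level from the Cldn5 correlation, were chosen after seeing the data. The cause of these differences was not tested.

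Signs of small changes turned. Between density groups, the endothelial covariate gave log2 fold changes of -0.23 for Fzd4, -0.066 for Lrp6, -0.12 for Ctnnb1 and -0.21 for Lef1. Sex as a covariate gave -0.18 for Fzd4, -0.041 for Ctnnb1 and -0.030 for Sox17, and males alone gave -0.21, -0.050 and -0.042 for the same genes. Tspan12 was at 0.017 with no filter, 0.020 with either TPM pseudocount, 0.27 with limma-voom, 0.070 in libraries of at least 1000000 counts and 0.034 with at least 1 CPM in 14 libraries. Axin2 was at 0.35 with limma-voom and 0.12 with a TPM pseudocount of 0.1. Leaving out each pre-dropout rat in turn gave -0.34 to 0.45 for Fzd4, -0.25 to 0.19 for Tspan12, -0.10 to 0.41 for Lef1 and -0.45 to 0.30 for Axin2.

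For the density slope, DESeq2's size factors, DESeq2, limma-voom and the endothelial covariate gave 0.031, 0.032, 0.10 and 0.17 for Lrp6. The endothelial covariate gave 0.10 for Ctnnb1, 0.058 for Axin2 and 0.35 for Sox17, and limma-voom 0.16 for Axin2. Sox17 was at 0.0039 with the size factors, 0.0030 with DESeq2, 0.060 with no covariate and 0.15 without T398F. For the glucose slope, Tspan12 was at 0.0086 in libraries of at least 1000000 counts, 0.028 on log2 glucose, 0.092 in normal rats and 0.048 without T389M. Ctnnb1 was at -0.0036 in the larger libraries, -0.025 with the endothelial covariate, -0.0021 in normal rats and -0.016 without T389M. Axin2 was at 0.074 with limma-voom, and Wnt11 at 0.023 with the endothelial covariate, 0.15 with no covariate and 0.019 without T446M, but at -1.42 in normal rats only and -1.36 without T389M. After removal of the endothelial marker level, the rho with Cldn5 was -0.14 for Fzd4, -0.019 for Lrp5 and for Lef1, -0.055 for Lrp6 and -0.18 for Apcdd1. Wnt11 could not be tested among males, with 1 CPM in 14 libraries or without T414F. Depth limits Wnt11, which had at most 71 counts, and the 2 libraries under 1000000 counts. No paired analysis was possible because the labels give no replicate numbers that groups share.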
